A study of Homo sapiens with 27 samples.

Results

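Proteasome subunit genes were taken as every gene whose symbol begins with PSMA, PSMB, PSMC, PSMD, PSME, PSMF or PSMG followed by a number. The rule found 48 of the 20268 protein-coding genes counted in the study, and all 48 were present in each of the 4 count tables. The counts come from Poly(A)-ClickSeq (PAC-seq), which reads into the junction of a transcript with its poly(A) tail, in 27 libraries of 3 human prostate cancer lines: hormone-sensitive LNCaP, its androgen-independent derivative LNCaP95, and hormone-insensitive 22Rv1. Each line was transduced with lentivirus for a control shRNA (CTRL sh) or for one of a pair of CPSF1 shRNAs, named CPSF1 sh1 and CPSF1 sh2, and each of these 9 groups had 3 libraries. All groups, controls included, were puromycin-selected pools seeded and grown for 72 h, LNCaP95 in medium without phenol red. CPSF1 encodes the largest subunit of the complex that recognises the poly(A) signal, and reads were counted in 3′ UTRs, in introns, in coding sequence (CDS) and in 10 kb of downstream sequence per gene.

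The proteasome is the protease that degrades ubiquitin-tagged proteins in the cytosol and nucleus. Its core particle is a barrel of stacked rings built from alpha (PSMA) and beta (PSMB) subunits, with the proteolytic sites on PSMB5, PSMB6 and PSMB7, which the interferon-inducible PSMB8, PSMB9 and PSMB10 can replace. A regulatory particle of ATPases (PSMC) and non-ATPase subunits (PSMD) binds, unfolds and feeds in substrates, PSME1 to PSME4 form alternative caps, PSMF1 is an inhibitor, and PSMG1 to PSMG4 with PSMD5, PSMD9 and PSMD10 are assembly chaperones.

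Levels are given as CPM, the count per 1000000 reads, scaled within each table over the 27 libraries, so a CPM of one table is not comparable with that of another. CPSF1 itself had 3′ UTR levels of 179.8, 143 and 136 CPM in the LNCaP controls, and its lowest, median and highest levels in the 6 knockdown libraries were 53.5, 65.1 and 97.2 CPM. In LNCaP, LNCaP95 and 22Rv1 its log2 change was -1.19 ± 0.17 (SE), -1.05 ± 0.18 and -0.73 ± 0.14 (edgeR adjusted p = 8.31e-05, 0.000301 and 0.0164), and in each line all 6 knockdown libraries lay below the 3 controls. In such bulk libraries, fewer cells carrying a transcript and less RNA per cell cannot be told apart. Each library held between 1725670 and 6549383 reads in 3′ UTRs and between 170330 and 728430 in the 10 kb regions. The library of 22Rv1 CTRL sh replicate 1 was the shallowest and stood farthest from its group, with an SD of 0.643 over genes for its log2 distance from the other 22Rv1 controls, against 0.226 to 0.5 for the other 26 libraries. KLK3, KRT8 and KRT18, markers of luminal prostate cells, were above 2 CPM in every line, and 4 leukocyte markers were below it. Among markers of other cell types, COL1A1 (fibroblast) and SYP (neuroendocrine) were also above 2 CPM in every line. KRT14 (basal) was above it in LNCaP and LNCaP95, and CHGA (neuroendocrine) in 22Rv1.

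Of the 48 genes, 42 exceeded a mean of 2 CPM in the 3′ UTR table and were tested in every line. The remaining 6 had few or no 3′ UTR reads over the 27 libraries: 40 for PSMB9, 36 for PSMB8, 23 for PSMA6, 5 for PSMA8, 2 for PSMB11 and 0 for PSMB10. PSMB8 and PSMB9 thus stayed under 2 CPM in each line, at most 1.01 CPM for PSMB8 and 1.75 CPM for PSMB9 in any library. The low counts of PSMA6 and PSMB10 have a counting limit, because 2633 of the 3461 bases of the PSMA6 region are shared on the same strand with KIAA0391 and 359 of the 426 bases of the PSMB10 region with CTC-479C5.12. Whether reads in such shared bases were dropped is not stated in the sources used here. PSMA8 and PSMB11 encode core subunits specific to testis and thymus.

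To determine whether the lines differ before knockdown, the 3′ UTR counts of the control libraries were compared. The summed level of the 48 genes was 9225 ± 376 CPM in LNCaP, 9034 ± 465 in LNCaP95 and 8284 ± 455 in 22Rv1 (SD, n = 3 each). Between LNCaP95 and LNCaP, 15 of the 42 genes passed the test, 9 higher and 6 lower in LNCaP95, beside 39.3% (19.1% higher, 20.2% lower) of all 11501 genes tested. Between 22Rv1 and LNCaP, 8 passed, 5 higher and 3 lower in 22Rv1, beside 47.2% (23.9% higher, 23.2% lower) of all genes. Between 22Rv1 and LNCaP95, 18 passed, 8 higher and 10 lower in 22Rv1, beside 54.6% (28.1% higher, 26.5% lower) of all genes. Without 22Rv1 CTRL sh replicate 1 the 3 counts were 22, 13 and 24, without 22Rv1 CTRL sh replicate 2 the 22Rv1 and LNCaP pair fell to 3, and without LNCaP CTRL sh replicate 3 the pairs with LNCaP fell to 9 and 4. Without LNCaP95 CTRL sh replicate 1, which enters through the shared estimate of spread, 5 genes passed between 22Rv1 and LNCaP.

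PSME1 and PSME2, which together form the heptameric cap known as PA28, were both lowest in LNCaP95. PSME1 had 93.1, 129.7 and 118 CPM in the LNCaP controls, 58.8, 64.2 and 57.9 in LNCaP95, and 125, 133 and 102 in 22Rv1. The LNCaP95 libraries lay below all others, with a log2 difference of -0.94 ± 0.17 from LNCaP (edgeR adjusted p = 0.000269), and 22Rv1 was 1.01 ± 0.17 above LNCaP95 (edgeR adjusted p = 7.16e-05). PSME2 had a mean of 271.8 ± 7.82 CPM in LNCaP, 137.6 ± 3.32 in LNCaP95 and 242 ± 14.4 in 22Rv1, and its log2 difference of LNCaP95 from LNCaP was -1.01 ± 0.13 (edgeR adjusted p = 1.66e-05). LNCaP and 22Rv1 did not pass the test for either gene, with differences of 0.07 ± 0.16 for PSME1 and -0.17 ± 0.13 for PSME2.

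PSMC2, an ATPase of the regulatory particle, was highest in 22Rv1. Its controls had 70.4, 55.4 and 65.3 CPM in LNCaP and 67.4, 76.3 and 68.8 CPM in LNCaP95, against 118, 162 and 169 CPM in 22Rv1. The 22Rv1 libraries did not overlap the others, and the log2 difference was 1.24 ± 0.17 over LNCaP and 1.11 ± 0.17 over LNCaP95 (edgeR adjusted p = 1.69e-05 and 3.38e-05), while LNCaP95 and LNCaP differed by 0.13 ± 0.17 and did not pass. PSMD1, the large scaffold subunit of the same particle, was also highest in 22Rv1, by 0.67 ± 0.16 over LNCaP and 0.54 ± 0.16 over LNCaP95 (edgeR adjusted p = 0.00278 and 0.00976). PSMD5, an assembly chaperone, was 0.99 ± 0.21 higher in 22Rv1 than in LNCaP95, at 32.2 to 35.1 against 15.7 to 18.4 CPM (edgeR adjusted p = 0.000744).

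PSMD10, the chaperone also called gankyrin, had its highest level in LNCaP95, with 74.2, 84.5 and 77.7 CPM against 33.4 to 40.4 in LNCaP and 27.5 to 40.5 in 22Rv1. The log2 difference was 1.07 ± 0.17 over LNCaP (edgeR adjusted p = 0.000119), and that of 22Rv1 from LNCaP95 was -1.23 ± 0.18 (edgeR adjusted p = 1.82e-05). The alpha-ring gene PSMA5 was also highest in LNCaP95, at 166.9 ± 9.49 CPM in LNCaP95, 93.4 ± 7.6 in LNCaP and 95.6 ± 34.1 in 22Rv1, where replicate 1 had 56.2 CPM and both other libraries 115. PSMD7, a scaffold partner of the deubiquitinase subunit PSMD14, was highest in LNCaP, with log2 differences of -0.70 ± 0.20 for LNCaP95 and -0.75 ± 0.20 for 22Rv1 against it (edgeR adjusted p = 0.00979 and 0.00479). The beta-ring gene PSMB4 was higher in 22Rv1 than in LNCaP by 0.67 ± 0.25 (edgeR adjusted p = 0.0388), though 22Rv1 CTRL sh replicate 1 had 93.3 CPM, under all 3 LNCaP controls. Of the constitutive catalytic subunits, PSMB6 was 0.43 ± 0.13 higher in LNCaP95 than in LNCaP (edgeR adjusted p = 0.0164), and PSMB5 and PSMB7 did not pass in any pair. In the plot of control levels, PSME1 and PSME2 form a low step in LNCaP95 where PSMD10 and PSMA5 form a high one.

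**Figure D1:**
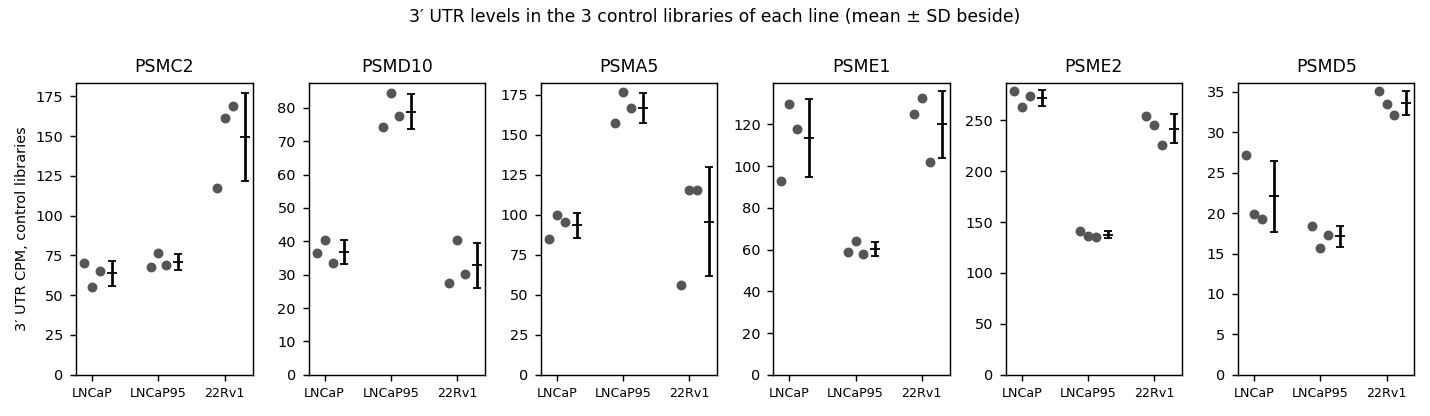
3′ UTR levels in CPM (y axes, from 0) of 6 proteasome genes in the 3 control libraries of LNCaP, LNCaP95 and 22Rv1 (x axes); points are libraries and the bars beside them the mean ± SD. PSMC2 and PSMD5 are highest in 22Rv1, PSMD10 and PSMA5 in LNCaP95, and PSME1 and PSME2 are lowest in LNCaP95.

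To determine how these genes respond to loss of CPSF1, 3 control libraries were compared with 6 knockdown libraries in each line. In LNCaP, 8 of the 42 genes rose and 1 fell in the 3′ UTR counts, beside 18.3% (8.24% higher, 10.1% lower) of all genes called, and the median log2 change of the 42 was 0.209 against 0.015 for all 11021 genes. In LNCaP95, 4 rose and 3 fell, beside 30.5% (15.2% higher, 15.2% lower) of all genes, with a median of 0.16 against 0.01. In 22Rv1, edgeR called 0 genes, beside 1.47% (0.678% higher, 0.791% lower) of all genes, with 2 at an unadjusted p under 0.05 and 0 called by DESeq2, and the median was -0.02 against -0.01. The log2 changes of single genes ran from -0.84 to 0.93 (LNCaP), from -0.75 to 0.64 (LNCaP95) and from -0.35 to 0.29 (22Rv1). The counts depended on single libraries and on the shRNA. In LNCaP, 5 genes passed without CTRL sh replicate 1 or without CTRL sh replicate 2, 14 without CPSF1 sh2 replicate 2, 16 with CPSF1 sh1 alone and 4 with CPSF1 sh2 alone. In LNCaP95, 2 passed without CTRL sh replicate 1, 3 without CTRL sh replicate 3, 11 without CPSF1 sh1 replicate 3 and 3 with CPSF1 sh1 alone.

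By role, the LNCaP calls were spread over the particle. Of the 6 alpha-ring genes tested, PSMA5 and PSMA7 rose, and the median change was 0.4. Of the 7 constitutive beta genes, PSMB5 rose, and of the 6 ATPases, PSMC2 and PSMC6 rose. Of the 11 non-ATPase subunits, PSMD6 and PSMD12 rose, with 9 of the 11 above 0. Among the 5 caps and regulators, PSMF1 rose and PSME1 fell. None of the 7 assembly chaperones passed, with a median of -0.09. In LNCaP95 the genes that rose were PSMC2, PSMD6, PSMD12 and PSMG1, and those that fell were PSMD4, PSME1 and PSME4.

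**Figure D2:**
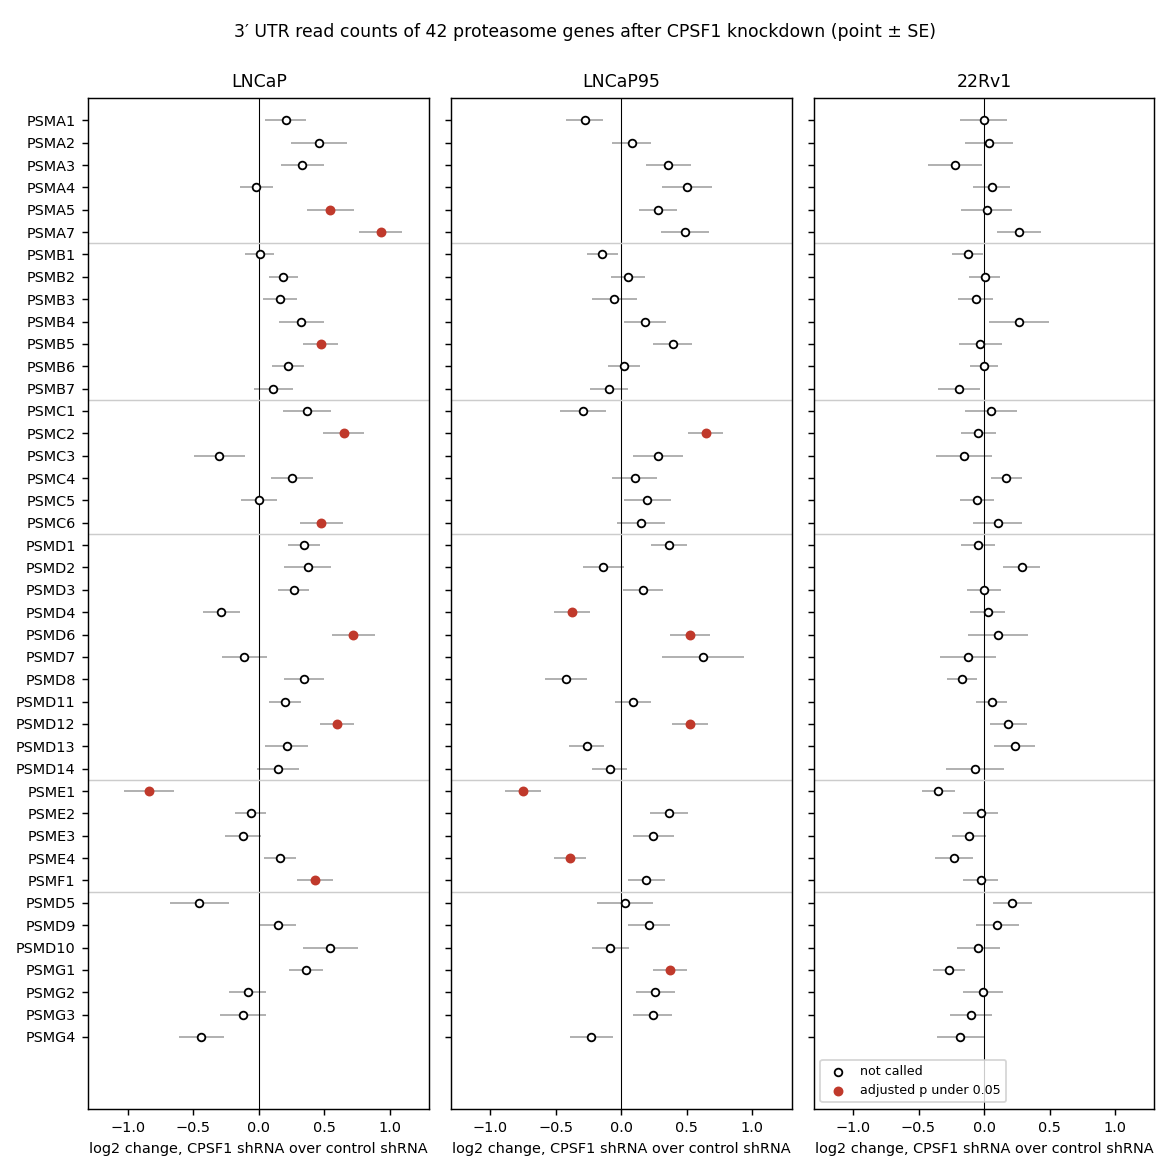
Log2 change in 3′ UTR counts after CPSF1 knockdown (x axes, point ± SE) of the 42 tested proteasome genes (rows, ordered as alpha ring, beta ring, ATPases, non-ATPase subunits, caps and regulators, and assembly chaperones, with grey lines between them) in 3 lines; red points passed an adjusted p of 0.05. PSME1 is the lowest point in LNCaP and LNCaP95, and no point is red in 22Rv1.

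PSME1 was the one gene of the 42 that fell in both LNCaP and LNCaP95. Its 3′ UTR region lies on chr14:24607688-24608476 (hg19, plus strand). The LNCaP controls had 93.1, 129.7 and 118 CPM, and the lowest, median and highest knockdown levels were 41, 69.8 and 84.1 CPM. In LNCaP95 the controls had 58.8, 64.2 and 57.9 CPM and the knockdown libraries 31.3, 34.5 and 40.2 CPM. In both lines all 6 knockdown libraries lay below all controls, with log2 changes of -0.84 ± 0.19 and -0.75 ± 0.14 (edgeR adjusted p = 0.00457 and 0.000475). In 22Rv1 the change was -0.35 ± 0.12 and did not pass (edgeR adjusted p = 0.194), and 5 of 6 knockdown libraries lay below the controls. Over the sum of the 4 regions, PSME1 was called lower in all 3 lines, by -0.75, -0.87 and -0.51 on the log2 scale in LNCaP, LNCaP95 and 22Rv1. PSME2, its partner in the cap, had 3′ UTR changes of -0.06 ± 0.12, 0.36 ± 0.14 and -0.03 ± 0.13 in the same order, and none passed. A line-by-knockdown test of PSME1 passed in no pair of lines.

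PSMC2, PSMD6 and PSMD12 rose in LNCaP and LNCaP95. PSMD6 and PSMD12 are subunits of the lid of the regulatory particle, the part that removes ubiquitin chains. PSMC2 went from 55.4 to 70.4 CPM in the LNCaP controls to 71, 100.5 and 115 CPM (lowest, median, highest) after knockdown, and from 67.4 to 76.3 CPM to 92.6, 110.0 and 122 CPM in LNCaP95. The groups did not overlap, and the log2 changes were 0.65 ± 0.15 and 0.64 ± 0.13 (edgeR adjusted p = 0.00668 and 0.00144). PSMD6 rose by 0.72 ± 0.16 and 0.52 ± 0.15 (edgeR adjusted p = 0.00496 and 0.0152), from 38.5, 38.8 and 43.8 CPM to a median of 67.9 in LNCaP and from 37.8, 40.7 and 36.3 to a median of 54.2 in LNCaP95. PSMD12 rose by 0.59 ± 0.13 and 0.53 ± 0.14 (edgeR adjusted p = 0.00366 and 0.00775), from 75, 81.6 and 73.7 CPM to a median of 117 in LNCaP and from 81.9, 97.7 and 101 to a median of 134 in LNCaP95. For PSMD6 and PSMD12 too, every knockdown library of LNCaP and LNCaP95 lay above every control. In 22Rv1 the changes were -0.04 ± 0.13 for PSMC2, 0.11 ± 0.23 for PSMD6 and 0.19 ± 0.14 for PSMD12. With CPSF1 sh2 alone, PSMC2 in LNCaP and PSMD6 in both lines no longer passed, and with CPSF1 sh1 alone PSMD12 in LNCaP95 no longer passed. The LNCaP call of PSMC2 was lost without CTRL sh replicate 2, and the LNCaP95 calls of PSMD6 and PSMD12 were lost without CTRL sh replicate 1, that of PSMD6 also without replicate 3.

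Of the constitutive catalytic subunits, PSMB5 alone passed the test, in LNCaP, and the difference between the subunits was not tested. PSMB5, the chymotrypsin-like site and the target of bortezomib, had 100.4, 109 and 116 CPM in the LNCaP controls and 123, 155 and 176 CPM (lowest, median, highest) after knockdown. No library overlapped, with a log2 rise of 0.47 ± 0.13 (edgeR adjusted p = 0.0182), which was lost with CPSF1 sh2 alone and without LNCaP CTRL sh replicate 1 or 2. In LNCaP95 PSMB5 changed by 0.39 ± 0.15 (edgeR adjusted p = 0.055) and in 22Rv1 by -0.03 ± 0.16. PSMB6, the caspase-like site, changed by 0.22 ± 0.12, 0.02 ± 0.12 and 0.00 ± 0.11 in LNCaP, LNCaP95 and 22Rv1, with the 22Rv1 interval (95%, from the SE) running from -0.21 to 0.21. PSMB7, the trypsin-like site, changed by 0.11 ± 0.15, -0.09 ± 0.15 and -0.19 ± 0.16. None of the PSMB6 and PSMB7 changes passed.

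The largest 3′ UTR rise in LNCaP was that of the alpha-ring gene PSMA7, from 82.6, 116 and 109 CPM to 137, 193 and 245 CPM (lowest, median, highest), a log2 change of 0.93 ± 0.16 (edgeR adjusted p = 0.000746). All 6 knockdown libraries lay above the controls. Most PSMA7 reads, however, lay in its CDS: 85.1% ± 3.3 in LNCaP controls and 78.5% ± 4.91 after knockdown (SD, n = 3 and 6). CDS reads of PSMA7 rose by 0.4 ± 0.11 (edgeR adjusted p = 0.0229). Large CDS shares were a feature of several members, at 88.1% for PSMC1, 58.5% for PSMD1, 44% for PSMD7 and 41.6% for PSMA4 in the LNCaP controls. Over the 48 genes, CDS took 26.4% ± 3.05 of reads in LNCaP controls, 24.3% ± 0.775 in LNCaP95 controls and 24.7% ± 3.55 in 22Rv1 controls, against 14.3%, 14.6% and 16% for all genes, and introns took 4.28% to 4.53% against 23.6% to 26.9%. The pooled CDS share came mostly from a few genes and does not describe the typical member. Over the 27 libraries, PSMD7, PSMA7, PSMA4, PSMC1 and PSMD1 held 122302, 90819, 57486, 46438 and 38187 CDS reads. No other member held more than the 12191 of PSMD2. PSMC1 has 13 annotated pseudogenes named after it, and reads shared with close copies cannot be told apart in the tables.

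In the CDS table, 2 of 24 genes tested were called higher in LNCaP, PSMA7 and PSMD1, beside 7.1% (3.8% higher, 3.31% lower) of all genes, and 1 of 21 was called lower in LNCaP95, PSME1 by -1.13 ± 0.35, beside 12.5% (7.51% higher, 4.99% lower). In 22Rv1 edgeR and DESeq2 each called 0 of 20, beside 1.01% (0.567% higher, 0.445% lower), with 2 at an unadjusted p under 0.05. The LNCaP count fell to 0 without CTRL sh replicate 1 and to 1 without CTRL sh replicate 2 or 3 or CPSF1 sh1 replicate 3. The LNCaP95 call was lost without CTRL sh replicate 1 or 2, CPSF1 sh1 replicate 3 or any CPSF1 sh2 replicate, and 3 genes passed without CPSF1 sh1 replicate 2.

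PSMB5 was also the one gene called in the intron table of all 3 lines. Its intronic levels were 44.2, 31.9 and 38 CPM in the LNCaP controls against 40.6, 60.3 and 72.8 CPM (lowest, median, highest) after knockdown, 24.9, 16 and 24.4 against 36.5, 46.1 and 56.1 CPM in LNCaP95, and 56.2, 50 and 42 against 70, 76.9 and 94.7 CPM in 22Rv1. Only 1 knockdown library, in LNCaP, overlapped its controls. The log2 changes were 0.73 ± 0.18, 1.09 ± 0.21 and 0.67 ± 0.15 (edgeR adjusted p = 0.00552, 0.000357 and 0.00868). In all, 1 of 35 genes was called in LNCaP introns, beside 14.3% (8.7% higher, 5.62% lower) of all genes, 2 were called higher and 5 lower in LNCaP95, beside 23.8% (13% higher, 10.8% lower), and 1 was called in 22Rv1, beside 4.37% (2.62% higher, 1.75% lower). The other gene called higher in LNCaP95 introns was PSMA1, with 262, 346 and 251 CPM in controls and 462, 470.5 and 595 CPM (lowest, median, highest) after knockdown, a log2 rise of 0.78 ± 0.16 (edgeR adjusted p = 0.000735), against -0.03 ± 0.12 in LNCaP and -0.23 ± 0.1 in 22Rv1. Introns held 35.4% ± 2.02 of PSMA1 reads in LNCaP95 controls and 53.9% ± 7.69 after knockdown, and 5243 of the 146830 bases counted as PSMA1 introns are shared with COPB1 introns. The LNCaP95 count fell to 2 without CTRL sh replicate 1 and to 3 without CTRL sh replicate 3. The LNCaP count fell to 0 without CTRL sh replicate 2, and the 22Rv1 count fell to 0 without CTRL sh replicate 3 and rose to 2 without CTRL sh replicate 2, CPSF1 sh1 replicate 1 or CPSF1 sh2 replicate 3. With library sizes summed over the 4 tables, the LNCaP95 split was 2 higher and 3 lower.

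Over the sum of the 4 regions, 13 genes rose and 1 fell in LNCaP, beside 27.5% (14% higher, 13.5% lower) of all genes, 5 rose and 5 fell in LNCaP95, beside 34.3% (17.6% higher, 16.8% lower), and 1 fell in 22Rv1, beside 7.57% (4.58% higher, 2.99% lower). The genes that fell were PSME1 in all 3 lines and, in LNCaP95 alone, PSMD4, PSMD8, PSMD13 and PSME4. Without CTRL sh replicate 1 or 3, 8 genes passed in LNCaP. In LNCaP95, 4 passed without CTRL sh replicate 1 and 5 without CTRL sh replicate 3. In 22Rv1, 3 passed without CTRL sh replicate 1 and 0 without CTRL sh replicate 2.

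The region use of the proteasome genes was then set beside that of all genes. In controls the 48 genes had few reads in the 10 kb downstream regions, with 0.512% ± 0.0461 of their reads in LNCaP, 0.423% ± 0.0272 in LNCaP95 and 0.962% ± 0.179 in 22Rv1 (SD, n = 3 each). After knockdown these shares were 1.33% ± 0.162, 1.69% ± 0.414 and 1.96% ± 0.369 (SD, n = 6 each). In each line every knockdown library lay above every control. For all genes the shares went from 4.88% to 6.28%, from 3.62% to 6.01% and from 4.66% to 5.87%. There too every knockdown library lay above every control of its line. The reads behind these shares were few, 816 in the 3 LNCaP controls and 4266 in the 6 knockdown libraries, and 4 genes, PSMG1, PSMB1, PSMC4 and PSMB2, held 36.7% to 63.8% of them in every library. For the other 44 genes, a split chosen after their values were seen, the shares went from 0.284% to 0.604% in LNCaP, from 0.268% to 0.918% in LNCaP95 and from 0.463% to 1.11% in 22Rv1, again with no overlap between controls and knockdown libraries. These pooled shares do not describe the typical member. Over the 27 libraries PSMD7, PSMA4 and PSMA7 held 292941, 137169 and 112873 reads in the 4 regions. Of these, 269, 259 and 206 lay in the 10 kb regions.

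**Figure D3:**
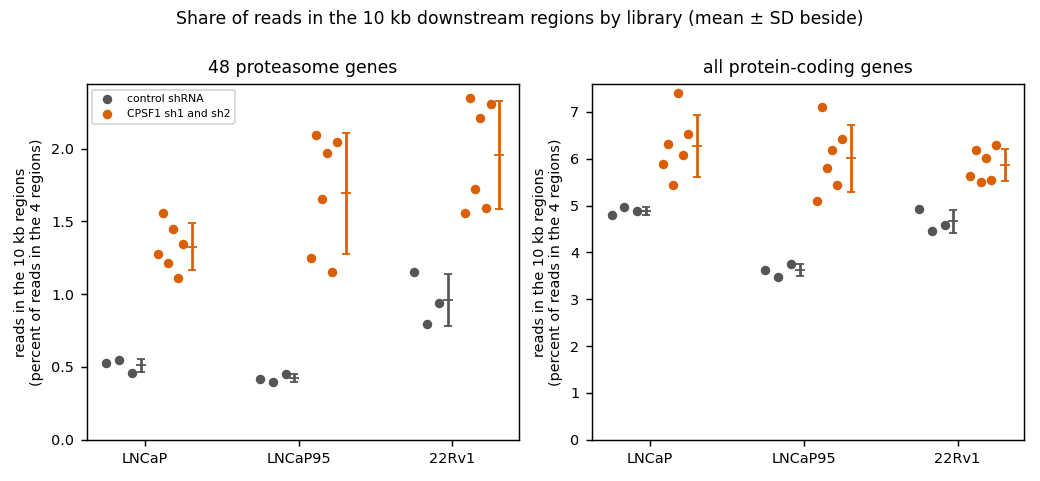
Percent of reads that fell in the 10 kb downstream regions, of all reads in the 4 regions (y axes, from 0), for the 48 proteasome genes together and for all protein-coding genes; points are libraries and the bars beside them the mean ± SD of 3 control and 6 knockdown libraries. In the proteasome genes the LNCaP share goes from 0.512% to 1.33%. In both panels no knockdown library overlaps the controls of its line.

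In the test of each gene, the 10 kb table was scaled to its own total, so a change is relative to the 10 kb regions of other genes. The filter on mean CPM takes in 6 knockdown and 3 control libraries. Genes with reads only after knockdown therefore enter more easily than genes with reads only in controls. This holds for every count of genes called from the 10 kb table, all genes included. In LNCaP, PSMC2, PSMA2 and PSMD10 entered with 1, 0 and 0 control reads. In LNCaP, 9 of 37 proteasome genes tested rose and none fell, beside 14.7% (9.52% higher, 5.2% lower) of all genes, with a median log2 change of 0.39 against 0.13 for all genes. In LNCaP95, 16 of 41 rose and 1 fell, beside 27.7% (17.6% higher, 10.1% lower), with a median of 1.04 against 0.22. In 22Rv1, 6 of 38 rose and none fell, beside 9.99% (7.26% higher, 2.73% lower), with a median of 0.29 against 0.19. In LNCaP, LNCaP95 and 22Rv1, 3, 1 and 1 of the tested genes had no control read. Set to a lower bound, these genes stayed above the medians, so the medians could not move. With 2 CPM required in every library, the medians of the proteasome genes were 0.285, 0.932 and 0.053 in LNCaP, LNCaP95 and 22Rv1. Those of all genes were then 0.015, -0.035 and -0.064. Scaling to the sum of the 4 tables moved the median of all genes to 0.62, 1.11 and 0.73, and the median of the proteasome genes to 0.87, 1.97 and 0.8, with 14, 23 and 11 genes called. The LNCaP count was 5 without CTRL sh replicate 1 and 4 without CTRL sh replicate 2 or 3. The 22Rv1 count was 3 without CTRL sh replicate 1 or 2 or CPSF1 sh2 replicate 2, and 2 without CTRL sh replicate 3. The LNCaP95 count stayed between 15 and 17 over the 9 fits that left out a library.

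The genes whose ratio of 10 kb to 3′ UTR counts passed the test in 2 or more lines were PSMC2, PSMD7, PSMD4, PSMG2, PSMD10, PSMA2, PSMB1 and PSMG1, which rose, and PSMA5, which fell. The poly(A) signal that CPSF reads is a hexamer upstream of the cleavage site, most often AATAAA and less often ATTAAA. The 50 bases before the last annotated 3′ end of each gene were searched for these hexamers on the transcribed strand. AATAAA was taken first where both occurred. AATAAA was found for 34 of the 48 proteasome genes (70.8%) and 59.4% of 19524 genes, ATTAAA alone for 7 (14.6%) and 13.5%, and neither for 7 (14.6%) and 27.1%. The windows of these genes are shown because they hold the hexamer found before the annotated 3′ end, from which its last base lay 12 to 33 bases away. Each is 30 bases of hg19 on the transcribed strand, 5′ to 3′, with the hexamer in capitals. The annotated end of PSMG1 had neither hexamer.
PSMC2, chr7:103009806-103009835, plus strand: atgttttgattaAATAAAtgtacacattta
PSMD7, chr16:74340154-74340183, plus strand: ttcaaagatacaATTAAAtggcttgatttt
PSMD4, chr1:151239905-151239934, plus strand: cattacagcctaAATAAAgcttggcaactt
PSMG2, chr18:12725704-12725733, plus strand: taaattttgtacAATAAAattttatttcct
PSMD10, chrX:107327437-107327466, minus strand: cagaaactaaaaAATAAAatgttgaaagaa
PSMA2, chr7:42948878-42948907, minus strand: attgcatcttgcATTAAAtatctggagaaa
PSMB1, chr6:170844212-170844241, minus strand: atggttttgtttATTAAAagagaaacctga
PSMA5, chr1:109941668-109941697, minus strand: ggccagtttataATTAAAagtaatctttac
AATAAA stood in 4 of these 8 windows and ATTAAA in the other 4. PSMA5, the gene whose ratio fell, had ATTAAA like 3 of those whose ratio rose, PSMA2 among them. The PSMA2 window lies before the last end annotated under that symbol. Its counted 10 kb region, chr7:42938573-42956160, begins upstream of that end. The window therefore need not be that of the PSMA2 end nearest its coding sequence, and its hexamer is counted here with that limit.

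PSMC2 had the smallest adjusted p of the members in the 10 kb counts of each line. Its 10 kb region, chr7:103010142-103020141 (hg19), begins where the counted 3′ UTR region ends and shares no base with another gene's 10 kb region. The LNCaP controls held 0, 1 and 0 reads there and the knockdown libraries 21, 33 and 66 (lowest, median, highest). The LNCaP95 controls held 0, 3 and 1 reads and the knockdown libraries 42, 95 and 195, and the 22Rv1 controls held 0, 5 and 2 reads and the knockdown libraries 80, 136.5 and 244. In all 3 lines every knockdown library lay far above every control. The ratio of summed reads in LNCaP, scaled to library size, was 84.2 with a 95% exact counting interval of 15 to 3339, since the controls held 1 read. The fitted log2 changes were 6.10 ± 0.69, 5.23 ± 0.56 and 4.55 ± 0.41 in LNCaP, LNCaP95 and 22Rv1 (edgeR adjusted p = 3.22e-13, 6.26e-13 and 7.68e-18). Every alternative that tested PSMC2 kept the call in each line. The filter of 2 CPM in every library left it out, as each line had a control with 0 reads. The 10 kb region held 0.113% ± 0.196 of PSMC2 reads in LNCaP controls and 9.43% ± 4.4 after knockdown, 0.325% ± 0.367 and 15.4% ± 7.52 in LNCaP95, and 0.369% ± 0.451 and 14.7% ± 3.29 in 22Rv1 (SD, n = 3 and 6). The ratio of 10 kb to 3′ UTR counts passed in all 3 lines, with log2 changes of 5.69 ± 0.88, 4.52 ± 0.66 and 4.63 ± 0.49 (edgeR adjusted p = 2.85e-05, 3.35e-06 and 1.33e-07). In 22Rv1 the 10 kb reads of PSMC2 rose beside a 3′ UTR change of -0.04, while in LNCaP and LNCaP95 both regions rose.

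PSMG1 and PSMB1 had the most 10 kb reads of any member, 4203 and 2290 over the 27 libraries. PSMG1, which pairs with PSMG2 to assemble the alpha ring, had 117, 128 and 166 CPM in the 10 kb region of LNCaP controls against 319, 399 and 467 CPM (lowest, median, highest) after knockdown, and 70.6, 92 and 119.6 against 306, 426 and 599 CPM in LNCaP95. The groups did not overlap, with log2 rises of 1.57 ± 0.24 and 2.17 ± 0.29 (edgeR adjusted p = 2.9e-08 and 3.08e-09). In 22Rv1 the PSMG1 controls were already at 226, 211 and 310.5 CPM, and the change was 0.48 ± 0.21 (edgeR adjusted p = 0.13). The region held 10.9% ± 1.47 of PSMG1 reads in LNCaP controls and 28.5% ± 6.22 after knockdown, 8.37% ± 1.92 and 39% ± 9.29 in LNCaP95, and 23.8% ± 6.66 and 43.8% ± 4.02 in 22Rv1. A newer annotation places an exon of 977 bases of the pseudogene PCBP2P1 inside this region on the same strand, and 593 of its 10000 bases are shared with the region of BRWD1. The part of these in the PSMG1 values was not tested.

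PSMB1, a beta-ring subunit without a proteolytic site, had 64.4, 106 and 114 CPM in the 10 kb region of LNCaP controls and 151, 310.1 and 498 CPM after knockdown, and 76.8, 66.2 and 69.2 against 163, 252 and 322 CPM in LNCaP95. No library overlapped, and the log2 rises were 1.82 ± 0.26 and 1.79 ± 0.30 (edgeR adjusted p = 8.55e-09 and 1.31e-06). In 22Rv1 the controls spread from 25.1 to 138 CPM and the change of 0.64 ± 0.3 did not pass (edgeR adjusted p = 0.165). The 3′ UTR counts of PSMB1 changed by 0.01, -0.15 and -0.12 in LNCaP, LNCaP95 and 22Rv1 and did not pass, so the ratio rose in LNCaP and LNCaP95 by 1.77 ± 0.36 and 1.92 ± 0.34 (edgeR adjusted p = 0.00106 and 5.71e-05). A long non-coding RNA of the newer annotation has 274 exonic bases in the region on the same strand.

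**Figure D4:**
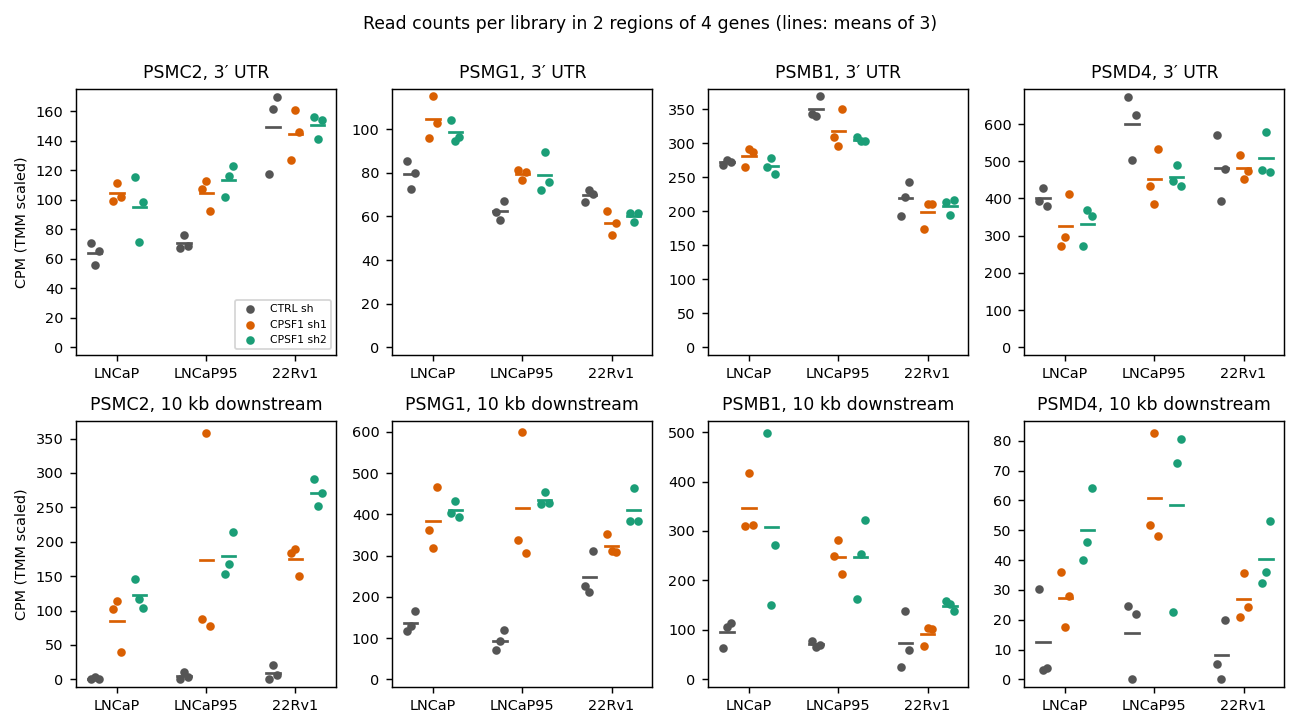
Levels in CPM (y axes, from 0) of PSMC2, PSMG1, PSMB1 and PSMD4 in their 3′ UTR (top) and 10 kb downstream region (bottom) in LNCaP, LNCaP95 and 22Rv1; points are libraries, lines the means of 3, and colours the CTRL sh, CPSF1 sh1 and CPSF1 sh2 groups. The 10 kb level of PSMC2 leaves the floor of 0 to 21.5 CPM seen in controls in every knockdown library of all 3 lines.

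PSMG2 and PSMD4 were called higher in the 10 kb counts of all 3 lines, like PSMC2. PSMG2 had 5, 5 and 1 reads in the LNCaP controls, and 2, 2 and 1 in those of LNCaP95 and of 22Rv1 alike, against medians of 12.5, 28.5 and 16.5 reads after knockdown. In CPM its groups did not overlap in any line, with log2 rises of 1.58 ± 0.57, 2.95 ± 0.64 and 2.06 ± 0.65 (edgeR adjusted p = 0.0444, 0.00017 and 0.0256). PSMD4, a ubiquitin receptor of the regulatory particle, rose by 1.7 ± 0.59, 1.87 ± 0.5 and 1.69 ± 0.58 in the 10 kb counts (edgeR adjusted p = 0.0333, 0.00222 and 0.0434). The LNCaP controls held 8, 1 and 1 reads, the LNCaP95 controls 8, 0 and 7, and the 22Rv1 controls 1, 0 and 7. In LNCaP, 1 control of 30.3 CPM overlapped the knockdown range of 17.7 to 64 CPM, and in LNCaP95 5 of 6 knockdown libraries lay above all controls. The 3′ UTR counts of PSMD4 went the other way in LNCaP95, by -0.38 ± 0.13 (edgeR adjusted p = 0.04), a call lost with CPSF1 sh1 alone, with a stricter filter and when the replicate number was blocked. That call was kept in only 3 of the 9 fits that left out a library. The LNCaP and 22Rv1 calls of both genes were lost with CPSF1 sh1 alone and without certain control libraries, and DESeq2 did not keep those of PSMD4 or the LNCaP call of PSMG2. The LNCaP call of PSMG2 was also lost with the replicate block, with RLE factors and with no filter, and the 22Rv1 call of PSMD4 with RLE factors.

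PSMD10 and PSMA2 went from almost no downstream reads to a few. PSMD10 had 0 reads in all LNCaP controls and 29 in the 6 knockdown libraries, at least 3.52-fold higher against a floor of 3 reads over the group. In LNCaP95 it had 1 read in controls and 69 after knockdown, a ratio of 19.1 with a 95% exact counting interval of 3.31 to 764. In 22Rv1 it had 0 and 20 reads, at least 1.33-fold higher, and the test did not pass (edgeR adjusted p = 0.161). PSMA2, of the alpha ring, had 0 control reads in LNCaP and LNCaP95 and 26 and 45 after knockdown, at least 3.16-fold and 4.14-fold higher, while in 22Rv1 the controls held 13 reads and the change was -0.01 ± 0.57. Of the 13739 bases of the PSMA2 10 kb region, 9453 are shared with that of C7orf25. The LNCaP ratio calls of PSMD10 and PSMA2 (edgeR adjusted p = 0.0411 and 0.0328) were lost with CPSF1 sh1 alone. Leaving out any LNCaP control also lost them, and each was kept in 4 of 9 such fits. That of PSMD10 was lost with the replicate block too. Their LNCaP 10 kb calls were lost with DESeq2 and on leaving out any LNCaP control, that of PSMD10 also with CPSF1 sh1 alone. PSMD7 held 5, 3 and 4 reads in the controls of LNCaP, LNCaP95 and 22Rv1 and 56, 91 and 110 after knockdown. Its 10 kb call passed in LNCaP95 and 22Rv1 (edgeR adjusted p = 0.00277 and 0.0174), and its ratio to the 3′ UTR rose in all 3 lines, by 2.12 ± 0.64, 2.42 ± 0.89 and 2.43 ± 0.69 (edgeR adjusted p = 0.0278, 0.0385 and 0.0264). In LNCaP95 and 22Rv1 its 10 kb and ratio calls were lost with CPSF1 sh1 alone, and in LNCaP its ratio call with CPSF1 sh2 alone. The ratio calls were kept in 6, 5 and 7 of the 9 fits that left out a library. PSMD6 rose in LNCaP and LNCaP95 (edgeR adjusted p = 0.0163 and 0.0288), from 3 and 4 control reads to 58 and 70, and PSMA7 rose in LNCaP95 and 22Rv1 (edgeR adjusted p = 0.0294 and 0.0476). Both PSMA7 calls were lost with CPSF1 sh1 alone and with DESeq2, and that of 22Rv1 also with RLE factors, with no filter and with the replicate block. The LNCaP95 call of PSMD6 was likewise lost with CPSF1 sh1 alone and with DESeq2, and its LNCaP call with CPSF1 sh2 alone. In the newer annotation, long non-coding RNAs have exons on the same strand in the 10 kb regions of PSMD7, PSMD6 and PSMA2. They cover 513, 611 and 1368 bases, and their part in these counts was not tested.

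PSMA5 was the one member called lower in 10 kb counts, in LNCaP95, although PSMA1 and PSMA8 also had all 6 LNCaP95 knockdown libraries below the controls and did not pass. The controls held 5, 10 and 3 reads in LNCaP and 11, 12 and 15 in LNCaP95, against 0 to 5 and 2 to 8 in the deeper set of 6 knockdown libraries. In CPM the groups did not overlap in either line, and the 10 kb change was -1.57 ± 0.75 in LNCaP (edgeR adjusted p = 0.16) and -2.36 ± 0.55 in LNCaP95 (edgeR adjusted p = 0.000394). The ratio to the 3′ UTR fell in both, with log2 changes of -2.12 ± 0.61 and -2.67 ± 0.49 (edgeR adjusted p = 0.0199 and 9.4e-05). The LNCaP fall was lost with either shRNA alone and with summed library sizes. In 22Rv1 the ratio changed by -1.08 ± 0.58 and did not pass (edgeR adjusted p = 0.268). The PSMA5 10 kb region holds 405 exonic bases of SORT1, the next gene on the same strand, in the newer annotation.

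For the ratio of 10 kb to 3′ UTR counts, 7 of 35 genes tested were called higher and 1 lower in LNCaP, beside 10.3% (8.39% higher, 1.95% lower) of all genes, 14 of 39 higher and 1 lower in LNCaP95, beside 28% (21.2% higher, 6.82% lower), and 3 of 36 higher in 22Rv1, beside 7.45% (6.65% higher, 0.803% lower). Leaving out libraries moved the LNCaP count, to 4 without CTRL sh replicate 1, 3 without CTRL sh replicate 2, 4 without CTRL sh replicate 3 and 5 without CPSF1 sh2 replicate 1. Changes in the 2 regions are set beside each other in the plot of 10 kb against 3′ UTR change. The genes whose ratio was called had 3′ UTR changes between -0.38 and 0.65 on the log2 scale.

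**Figure D5:**
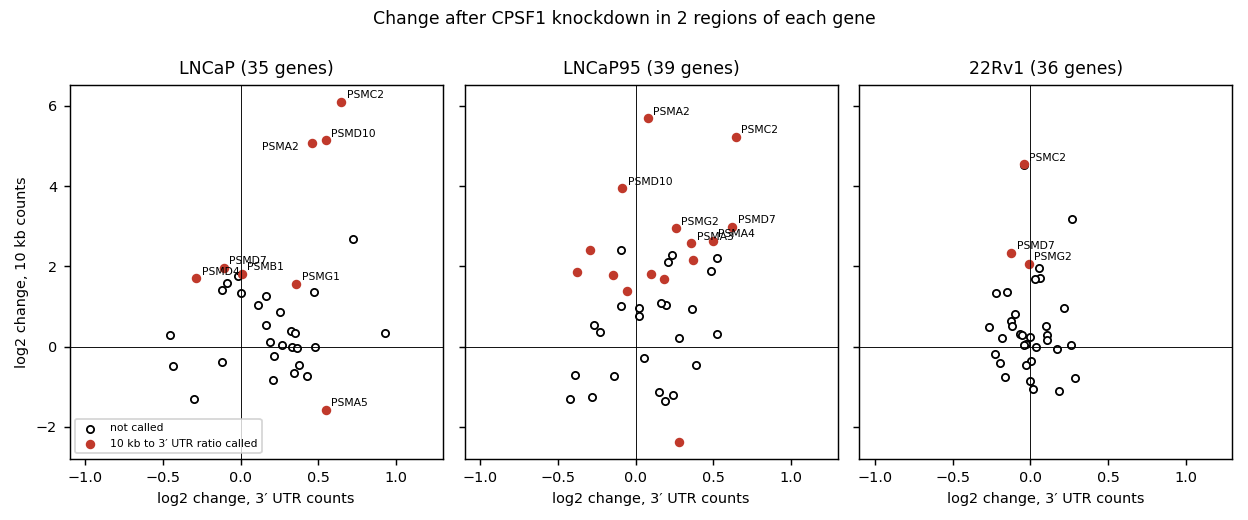
Log2 change after CPSF1 knockdown in 10 kb counts (y axis) against that in 3′ UTR counts (x axes) for the proteasome genes tested in both tables in each line; red points passed the test of the 10 kb to 3′ UTR ratio, with names where there is room. PSMC2 stands at 6.10, 5.23 and 4.55 on the y axis in LNCaP, LNCaP95 and 22Rv1, where in 22Rv1 its point covers that of PSMD10, and PSMA5 lies below 0 in LNCaP and LNCaP95. In LNCaP and LNCaP95 the values of PSMA2 and PSMD10, and in LNCaP that of PSMC2, are fits against controls with 0 or 1 read and are no bound on a fold.

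Whether a 3′ UTR response differed between lines was tested as a line-by-knockdown term over the 27 libraries. In each pair of lines 2 of the 42 genes passed, both lower in the first line named, beside 10.3% (5.61% higher, 4.74% lower) of all genes for LNCaP95 and LNCaP, 5.71% (3.48% higher, 2.24% lower) for 22Rv1 and LNCaP, and 11.7% (5.88% higher, 5.85% lower) for 22Rv1 and LNCaP95. PSMC2 and PSMG1 passed in both pairs with 22Rv1. The PSMC2 response in 22Rv1 minus that in LNCaP and in LNCaP95 was -0.67 ± 0.19 and -0.68 ± 0.19 (edgeR adjusted p = 0.0345 and 0.0191). Its control level was also highest in 22Rv1. The same control libraries enter both values, and a link between them was not tested. PSMG1 changed by 0.36 ± 0.13, 0.37 ± 0.13 and -0.27 ± 0.12 in LNCaP, LNCaP95 and 22Rv1, with all 6 knockdown libraries above the controls in LNCaP and LNCaP95 and all 6 below them in 22Rv1. Of these PSMG1 changes only the LNCaP95 rise passed by itself, and it was lost with either shRNA alone. PSMD8, a lid subunit, changed by 0.35 ± 0.15 in LNCaP and -0.42 ± 0.16 in LNCaP95, neither of which passed alone, and PSME4, the PA200 cap, by 0.16 ± 0.12 and -0.39 ± 0.12, and the differences of both genes between these lines passed (edgeR adjusted p = 0.0171 and 0.034). Without 22Rv1 CTRL sh replicate 1, 6 genes passed between 22Rv1 and LNCaP and 5 between 22Rv1 and LNCaP95. Without LNCaP CTRL sh replicate 2, or 22Rv1 CTRL sh replicate 2 or 3, 0 passed between 22Rv1 and LNCaP. Each pair fell to 1 gene without certain other libraries. Differences between lines in the 10 kb response were not tested.

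Of 32 symbols of other genes in proteasome assembly, ubiquitin supply and control of proteasome expression, 29 were in the tables. In the 3′ UTR counts 2 rose and 1 fell in LNCaP, 6 rose and 6 fell in LNCaP95, and 1 fell in 22Rv1, beside 18.3%, 30.5% and 1.47% of all genes called. PAAF1, a chaperone of the regulatory ATPases, fell in all 3 lines, with controls of 59.3, 70.4 and 77.5 CPM against 40.4, 48.7 and 56.8 CPM (lowest, median, highest) in LNCaP. Its log2 changes were -0.51 ± 0.14, -0.72 ± 0.17 and -0.72 ± 0.16 in LNCaP, LNCaP95 and 22Rv1 (edgeR adjusted p = 0.0166, 0.0034 and 0.0298), and all 6 knockdown libraries lay below the controls in each line. The 22Rv1 call of PAAF1 was lost with either shRNA alone. USP14 and UBE3C, a deubiquitinase and a ubiquitin ligase that bind the proteasome, rose in LNCaP and LNCaP95, USP14 by 0.42 ± 0.12 and 0.4 ± 0.13 (edgeR adjusted p = 0.0223 and 0.0289) and UBE3C by 0.53 ± 0.15 and 0.56 ± 0.13 (edgeR adjusted p = 0.0233 and 0.00306). In the 10 kb counts, 6 of 26 of these other genes rose in LNCaP, 13 of 28 rose and 2 fell in LNCaP95, and 5 of 27 rose in 22Rv1, beside 14.7%, 27.7% and 9.99% of all genes called. Their median log2 changes were 0.9, 1.78 and 0.5, against 0.13, 0.22 and 0.19 for all genes.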

How the data were processed

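Raw counts of reads per gene were deposited by the authors as 4 tables (3′ UTRs extended by 300 bases, introns, CDS, and 10 kb downstream without same-strand exons of protein-coding genes). Per the labels and methods, reads were mapped to GRCh37 (hg19) with HISAT2 2.1.0 and counted by their 3′-most base with Subread, on the strand of the gene. The submitters' processing notes give Subread 2.0.3, and the methods name another version. How reads in bases shared by 2 genes were treated is not stated. Column titles gave every sample, with 0 columns left over.

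All genes of a table entered 1 fit of edgeR 4.0.16 (R 4.3.3, glmQLFTest), with 3 control against 6 knockdown libraries per line, TMM factors, genes above a mean of 2 CPM, Benjamini-Hochberg adjusted p under 0.05 over all genes tested. SEs were derived from the F statistic. The 10 kb to 3′ UTR ratio was tested as a region-by-knockdown term, controls between lines over the 9 control libraries, and changes between lines over the 27. CPM for display used TMM over the 27 libraries. Bounds use 3 reads over a group, and neither bounds nor intervals cover more than counting error, as the tables do not separate PCR copies. The replicates are called biological in the methods without naming separate transductions, so p-values measure the spread between these libraries.

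Genes were named by a rule: those called in 1 direction in 2 or more lines in a table, the 4 largest differences per pair of control lines, those whose response differed between lines, and the catalytic and PA28 subunits. For 10 kb counts the first part was cut at the 10 genes with the largest absolute mean change over the lines. Genes with smaller changes that met it were not named by it. Others are named where a count was small, after their values were seen. The genes and lists were chosen with earlier results of these data known. Alternatives were RLE factors, other filters, each shRNA alone, a replicate block, DESeq2 1.42.0, summed library sizes, counts summed over the 4 tables, and each library left out. Overlaps and hexamers were read from the table coordinates, a GRCh37 Gencode annotation newer than that of the authors, and the GRCh37 genome. Scripts were tested on simulated counts. Libraries of a group differed beyond counting noise, with a chi-square per degree of freedom of at least 3.13.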

Additional observations from a re-analysis of the deposited data

Results flagged for a closer look

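In 6 cases the 3′ UTR response of a gene to CPSF1 knockdown differed between lines by a line-by-knockdown test over the 27 libraries. In log2 units, the response of PSMD8 in LNCaP95 minus that in LNCaP was -0.75 ± 0.21 (SE) and that of PSME4 was -0.54 ± 0.17 (edgeR adjusted p = 0.0171 and 0.034). The response of PSMC2 in 22Rv1 minus that in LNCaP was -0.67 ± 0.19 and that of PSMG1 was -0.60 ± 0.16 (edgeR adjusted p = 0.0345 and 0.0194). The response of PSMC2 in 22Rv1 minus that in LNCaP95 was -0.68 ± 0.19 and that of PSMG1 was -0.63 ± 0.16 (edgeR adjusted p = 0.0191 and 0.0096). With CPSF1 sh1 alone all but those of 22Rv1 from LNCaP were lost, and with CPSF1 sh2 alone all but that of PSMD8. Without a filter on low counts those of PSME4 and PSMG1 were lost, and with a replicate block that of PSME4. The cause was not tested.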

How the results depend on the processing

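Counts are of proteasome genes called, and the cause of a move was not tested unless fewer genes or libraries entered. In 3′ UTR counts, LNCaP had 16 with CPSF1 sh1 alone and 4 with sh2 alone, against 9, and LNCaP95 had 11 above 2 CPM in every library, 3 with sh1 alone and 13 with DESeq2, against 7. In 10 kb counts, LNCaP had 5 above 2 CPM in every library, 5 with DESeq2 and 14 with summed library sizes, against 9, and 22Rv1 had 3 with RLE factors, 2 above 2 CPM in every library, 1 with sh1 alone and 11 with summed sizes, against 6. In introns, LNCaP had 0 and LNCaP95 2 with sh1 alone, and 22Rv1 0 with sh1 alone and 2 with RLE factors, either other filter, sh2 alone, DESeq2 and summed sizes. In CDS, LNCaP had 1 with no filter or sh2 alone, 4 with DESeq2 and 0 with summed sizes, and LNCaP95 3 with no filter and 0 with sh1 alone. Over the summed regions, LNCaP95 had 6 and 22Rv1 0 with sh1 alone, and 22Rv1 2 with DESeq2. For the ratio, LNCaP had 4 above 2 CPM in every library or with sh1 alone, LNCaP95 9 above 2 CPM in every library and 23 with summed sizes, and 22Rv1 1 with sh1 alone, 6 with sh2 alone and 11 with summed sizes. Between lines, LNCaP95 against LNCaP had 1 with no filter or either shRNA alone, 22Rv1 against LNCaP 1 with no filter and 0 with sh2 alone, and 22Rv1 against LNCaP95 1 with no filter or sh2 alone and 0 with sh1 alone.

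Over all arms the replicate numbers did not pair the libraries: 10 of 27 correlations were above 0.1, from -0.381 to 0.571, and 7 of 27 were highest for the shared number. In 22Rv1 the 3 pairs of CTRL sh and CPSF1 sh1 were all above 0.1 (0.571, 0.387 and 0.191), while those with CPSF1 sh2 ran from -0.257 to 0.041. With the replicate block, 22Rv1 introns had 2 and LNCaP95 against LNCaP 1, and no other count of these genes moved by over 1.5 times.

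Leaving out each library gave 5 to 14, 2 to 11 and 0 to 0 in 3′ UTRs of LNCaP, LNCaP95 and 22Rv1, 4 to 10, 15 to 17 and 2 to 6 in 10 kb, 0 to 1, 2 to 7 and 0 to 2 in introns, 0 to 3, 0 to 3 and 0 to 0 in CDS, 8 to 18, 4 to 10 and 0 to 3 over summed regions, and 3 to 9, 12 to 16 and 2 to 4 for the ratio. It gave 9 to 22, 3 to 13 and 16 to 24 for controls, and 1 to 3, 0 to 6 and 1 to 5 for changes between LNCaP95 and LNCaP, 22Rv1 and LNCaP, and 22Rv1 and LNCaP95. No named gene changed direction. Over 150 results of single genes, the call was kept in 908 and lost in 115 alternative fits, and kept in 1206 and lost in 252 fits without a library. Fits in which the gene was not tested, as under a stricter filter, are not counted. The 10 kb table is the shallowest, and control counts of a few reads set the precision of its folds.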
